A study of Danio rerio with 10 samples.

Results

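The genes described here are 6 genes that mark microglia and other leukocytes, read in FACsorted oligodendroglial cells of the adult zebrafish spinal cord. They were chosen by name, as known markers of these cells, though with earlier results of these data known. They are 6 of the 31388 features in the count table. The experiment compared *olig2*:GFP-positive cells of the line Tg(olig2:eGFP), called oligodendrocyte progenitor cells (OPCs), with *mbp*:GFP-positive cells of the line Tg(mbp:eGFP), called mature oligodendrocytes (OLs). Each population had 5 biological replicates from adult fish, a single dissociation could pool as many as 5 cords, and cells were gated on GFP and on a nuclear dye. The GFP follows the *olig2* or the *mbp* promoter, a subset of radial glia near the central canal is labelled by *olig2*:GFP too, and the strainer for OPCs was the finer one. Effects of line and of strainer cannot be told apart from those of the population.

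Microglia are the resident macrophages of the central nervous system. They come from the blood-forming lineage and not from the neural tube, unlike OPCs and OLs. In zebrafish, as in mammals, their formation needs the transcription factor PU.1 and the receptor for colony-stimulating factor 1, and they engulf dying cells and myelin debris. A sorted neural population can hold a few of them, or RNA they have shed, and their marker genes are read for that reason.

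The 6 genes fall into 4 roles. The transcription factor is *spi1b* (ENSDARG00000000767), which encodes PU.1, the factor that directs myeloid development. The first receptor is *csf1ra* (ENSDARG00000102986), a receptor tyrosine kinase for colony-stimulating factor 1 that zebrafish also use in yellow pigment cells. The other is *ptprc* (ENSDARG00000071437), the transmembrane phosphatase CD45 of leukocytes. The actin-binding proteins are *lcp1* (ENSDARG00000023188), the bundling protein L-plastin, and *coro1a* (ENSDARG00000054610), the coronin of leukocytes. The effector is *mpeg1.1* (ENSDARG00000055290), a perforin-like protein of macrophages whose promoter is widely used to label them in zebrafish.

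In GRCz10, *spi1b* lies on chromosome 7 from 32373523 to 32388195 with 6 exon blocks, and *csf1ra* on chromosome 14 from 3170816 to 3202049 with 19. The gene *ptprc* spans chromosome 22 from 22962427 to 23053079 in 26 exon blocks, and *lcp1* chromosome 9 from 56663225 to 56705090 in 30. The gene *coro1a* lies on chromosome 3 from 30795522 to 30810520 with 11 exon blocks, and *mpeg1.1* on chromosome 8 from 29700878 to 29704389 with 2. All 6 are annotated on the minus strand. The exons of *spi1b* overlap those of 1 feature on the plus strand, and since the use of strand in counting is not given in the sources used here, reads of the pair may not be separated. The other 5 genes overlap 0 features.

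The lineage genes chosen to check the sorted cells were at high levels. Per kilobase of exon, *olig2*, the lineage factor behind one of the reporters, had 10196 ± 2456 normalized counts (counts divided by the size factor of the library) in OPCs against 2210 ± 881 in OLs (SD, 5 libraries each), and the lineage factor *sox10* had 945 ± 284 and 1035 ± 268. The myelin protein gene *mbpa* had 202094 ± 23517 in OPCs and 354886 ± 23569 in OLs on the same scale. Not all lineage genes were high. Of 15 matched genes of the oligodendrocyte lineage list, 12 averaged 100 normalized counts or more. The other 3, named with their values known, were *pdgfra*, *cspg4* and *nkx2.2b*. They were at or below the level per kilobase of *ptprc*, and *nkx2.2b* had 0 counts in every library. The total count of a library was 11072526 to 11960408 in OPCs (median 11544659) and 13937725 to 20225093 in OLs (median 15646223), so every OL library was deeper. At these depths a count of 0 allows up to 0.251 to 0.271 CPM (counts scaled to a common total of the library) in an OPC library and 0.148 to 0.215 in an OL library. These limits, set at 3 counts, cover counting error only, because amplified reads without molecular identifiers are not independent molecules.

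Except for *ptprc*, the leukocyte genes were at or near the limit of detection in most libraries. Of the 60 values of 6 genes in 10 libraries, 25 were 0 and 21 were above 3 counts. The receptor phosphatase gene *ptprc* held 10 of these 21, since it was above 3 counts in every library. Averaged over the 6 genes, the level was 1.49 ± 0.613 normalized counts per kilobase in OPCs against 1.47 ± 0.974 in OLs (SD, 5 libraries each). Only *ptprc* passed the filter on low counts that 39.2% of all features passed, and 5 members were therefore examined by an exact permutation test on log2(normalized count + 1) instead of the test across features. In bulk libraries, fewer cells of a type and less RNA per cell cannot be told apart.

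**Figure D1:**
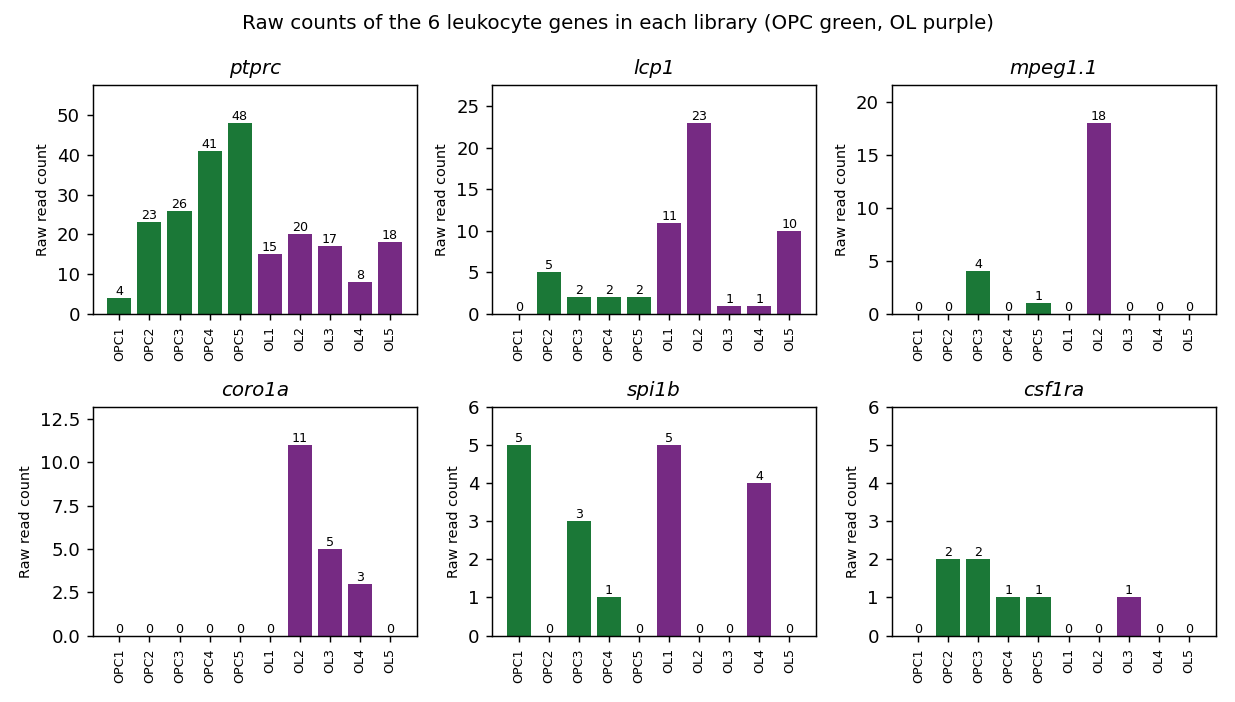
Raw read counts (vertical axis, linear, with its own range in each panel) of the 6 leukocyte genes in each of the 10 libraries, OPCs in green and OLs in purple, with the count printed above each bar. The gene *ptprc* has 4 to 48 counts in all 10 libraries, while *mpeg1.1* has 18 counts in OL2, 4 in OPC3 and at most 1 elsewhere.

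The receptor phosphatase gene *ptprc* was the member with the most reads. Its counts were 4, 23, 26, 41 and 48 in OPC1 to OPC5, and 15, 20, 17, 8 and 18 in OL1 to OL5. After scaling, it had 29.4 ± 16.9 normalized counts in OPCs against 14.3 ± 4.75 in OLs (SD, 5 libraries each). OPC1 was the lowest of all 10 libraries and the other 4 OPC libraries were above every OL library, so the populations overlapped through OPC1 alone. The log2 fold change of OPCs over OLs was 1.03 ± 0.595 (SE) and did not pass the threshold (adjusted p = 0.328 by the quasi-likelihood test of edgeR, adjusted over 12292 features as Benjamini and Hochberg proposed). Of all tested features, 11.8% passed it and 9.01% were higher in OPCs. Without OPC1 the log2 fold change was 1.31, still with an adjusted p of 0.121 in the same edgeR test.

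The receptor gene *csf1ra* had the fewest reads of the 6. Its counts were 0, 2, 2, 1 and 1 in OPC1 to OPC5, and it had 1 count in OL3 and 0 in the other OL libraries. Every value was at or under 3 counts, so no fold is given. It was seen in 4 OPC libraries and in 1 OL library, and the exact permutation test found no difference beyond the spread (two-sided, p = 0.127, where 5 libraries against 5 allow no p under 0.00794). Scaled by library size alone, the same exact test gave p = 0.0476, again from counts of at most 2.

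The transcription factor gene *spi1b* was seen in 5 libraries. It had 5, 0, 3, 1 and 0 counts in OPC1 to OPC5 and 5, 0, 0, 4 and 0 in OL1 to OL5. The populations had 1.96 ± 2.33 and 1.5 ± 2.07 normalized counts (SD, n = 5 each), and the two-sided exact permutation test gave p = 0.762. The 5 libraries with any *spi1b* read included neither OL2, where 3 of the other members were highest, nor OPC5, where *ptprc* had its largest count.

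The actin-bundling gene *lcp1* was seen in 9 libraries. Its counts were 0, 5, 2, 2 and 2 in OPC1 to OPC5, against 11, 23, 1, 1 and 10 in OL1 to OL5. OL1, OL2 and OL5 were above every OPC library, while OL3 and OL4 were within the OPC range. It had 2.29 ± 1.84 normalized counts in OPCs against 7.80 ± 7.65 in OLs (SD, 5 libraries each), a difference that the exact permutation test did not separate from the spread (two-sided, p = 0.206). On log2(normalized count + 1) the difference (OPC minus OL) was -1.09, against -0.65 without OL2 and -0.72 without OPC1.

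The coronin gene *coro1a* was seen only in OL libraries. It had 0 counts in all 5 OPC libraries and 0, 11, 5, 3 and 0 in OL1 to OL5. OLs themselves had only 3.59 ± 4.0 normalized counts (SD, n = 5). This is close to the 3.15 normalized counts that OPC libraries set to 3 counts each would have, so no fold is given. OL1 and OL5 were at 0 like the OPC libraries, so the populations overlapped (exact permutation test, two-sided, p = 0.167). This p is the smallest that reads in only 3 libraries allow, so the test cannot tell whether *coro1a* differs. In a fit without the filter on low counts, *coro1a* was the member with the smallest p (unadjusted p = 0.0107, adjusted p = 0.0875, edgeR's quasi-likelihood test over 25313 features).

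The macrophage gene *mpeg1.1* was concentrated in OL2. It had 18 counts there, or 1.04 CPM (95% exact Clopper-Pearson interval 0.616 to 1.64, counting error only), 4 in OPC3, 1 in OPC5 and 0 in the other 7 libraries. OL2 lay above the limits that the zeros of the other OL libraries allow. As a group, OLs had 3.07 ± 6.87 normalized counts and OPCs 1.09 ± 1.95 (SD, n = 5 each), with p = 1 in the two-sided exact permutation test. With reads in only 3 libraries, that test could not have given a p under 0.05 for *mpeg1.1*. Without OL2 the sign of the difference on log2(normalized count + 1) turned, from -0.12 to 0.68 (OPC minus OL), because all other OL libraries were at 0.

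None of the 6 genes differed between the populations at an adjusted p under 0.05, whether the filter on low counts was used (1 member tested) or not (6 tested). Without the filter, 1 of the 6 had an unadjusted p under 0.05 in edgeR's test, and 9.23% of all 25313 features passed the adjusted threshold (7.76% in the direction of OPCs, 1.47% in that of OLs). DESeq2 and limma voom, each testing *ptprc* alone of the members, also made 0 calls, with 0 members at an unadjusted p under 0.05. In edgeR's test with the filter, *ptprc* had an unadjusted p under 0.05 with library size alone and without OPC1. It passed the adjusted threshold in neither. The populations overlapped for all 6 genes, whereas they did not overlap for 8.02% of those features.

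**Figure D2:**
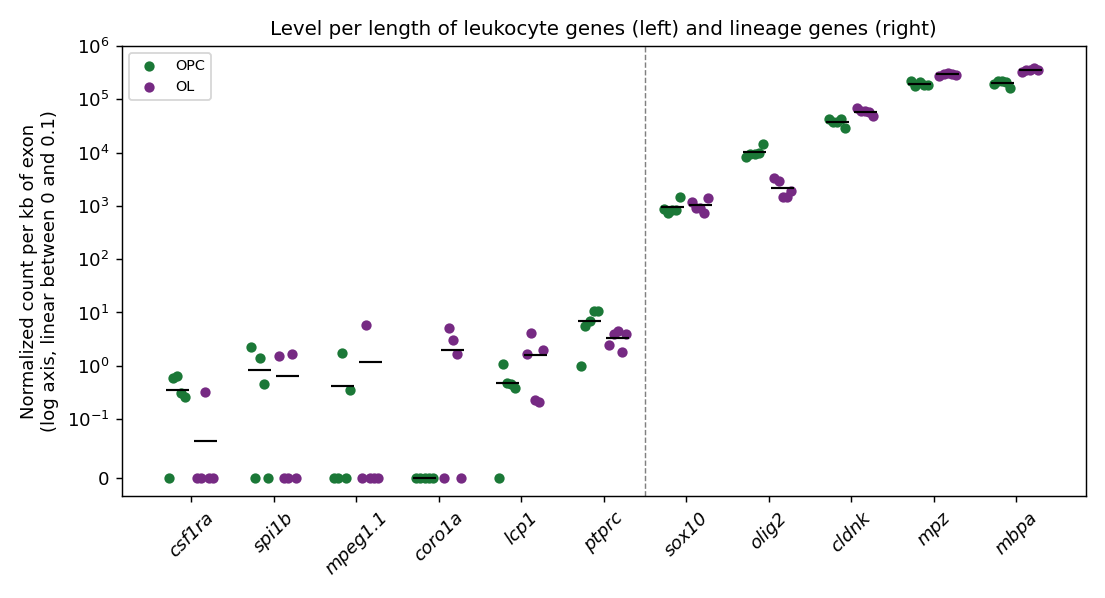
Normalized count per kilobase of exon (vertical axis, logarithmic above 0.1 and linear below) for the 6 leukocyte genes and, right of the dashed line, 5 genes of the oligodendroglial lineage. Each point is a library, OPCs in green and OLs in purple, and black lines are means of 5 libraries; the leukocyte genes lie between 0 and 10.5, while *sox10*, the lowest lineage gene shown, has means of 945 and 1035.

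Per length, the order of the 6 genes over all 10 libraries was *ptprc*, *lcp1*, *coro1a*, *mpeg1.1*, *spi1b* and *csf1ra*. The gene *ptprc* had 5.09 ± 3.30 normalized counts per kilobase (SD, n = 10 libraries) and was the highest member in 8 libraries. It exceeded *lcp1*, which had 1.05 ± 1.25, in 9 of 10 libraries. The next genes were close together, with 0.990 ± 1.80 for *coro1a*, 0.790 ± 1.85 for *mpeg1.1* and 0.731 ± 0.883 for *spi1b* on the same scale. The order was not that of either population: in OPCs *spi1b* came second, with a mean of 0.827, and *coro1a* was at 0, whereas in OLs *coro1a* came second, with 1.98. From *lcp1* down to *csf1ra*, over all libraries, at 0.211 ± 0.251, each neighbour in the order differed from the next by less than the SD of that difference over the libraries. By mean level per kilobase, *ptprc* ranked above 58.5% of all features in the table, and the other 5 above 31.5% to 44.9%, where 19.4% of the features had no count in any library.

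Summed over the 6 genes, the reads of leukocyte genes varied more between libraries than between populations. The sums were 9, 30, 37, 45 and 52 counts in OPC1 to OPC5, and 31, 72, 24, 16 and 28 in OL1 to OL5. OL2 thus had the largest sum and OPC1 the smallest. As normalized counts, the sums were 36.0 ± 16.5 in OPCs against 30.5 ± 17.9 in OLs (SD, 5 libraries each), a ratio of 1.18, and no test was made of a sum over chosen genes. Without OL2 the ratio was 1.58. The ratio was carried by *ptprc*: the other 5 genes summed to 6.60 ± 3.48 normalized counts in OPCs against 16.2 ± 15.8 in OLs, a ratio of 0.408.

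The make-up of the sum differed as well. In OPC4 and OPC5, 91.1% and 92.3% of the summed counts were of *ptprc*, whereas in OL2 it was 27.8%. Leaving *ptprc* out, OL2 had 44.4 normalized counts of the other 5 genes, the other OL libraries had between 7.82 and 11.4, and OPC libraries had between 3.74 and 12.4, with OPC3 the highest of them. The gene *ptprc* and the other 5 thus did not peak in the same libraries.

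The paralogues of 2 members were read from the lists of leukocyte genes. The gene *spi1a*, singled out with its values known, had 22.7 ± 25.5 normalized counts in OPCs against 28.7 ± 5.71 in OLs (SD, 5 libraries each), with a log2 fold change of -0.34 (adjusted p = 0.875, edgeR). It was thus seen in 9 libraries at a level above that of *spi1b*, though with only 2 counts in OPC2, and was at 0 in OPC5. The gene *csf1rb*, likewise singled out, had between 0 and 9 counts in a library, was at 0 in 4 libraries, and was not tested.

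Of the ligands of the colony-stimulating factor 1 receptor, *il34*, which encodes interleukin-34, had reads in every library of both populations. It had 140.5, 46.2, 108.0, 180.8 and 186.9 normalized counts in OPC1 to OPC5 and 202.1, 207.5, 464.8, 285.6 and 540.9 in OL1 to OL5. Every OL library was above every OPC library, and the populations did not overlap, in either direction, for 12.6% of tested features. The gene *il34* was higher in OLs (log2 fold change of OPCs over OLs -1.36 ± 0.393 (SE), adjusted p = 0.0412, edgeR), where 2.82% of tested features were called in that direction. This call was close to the threshold. It was lost with library size alone (adjusted p = 0.0915), with at least 10 counts required in every library (adjusted p = 0.0653) and without any one of OPC1, OPC2, OPC3, OL3, OL4 and OL5 (adjusted p from 0.0503 to 0.0912), all in edgeR's test. The other ligand genes, *csf1a* and *csf1b*, had at most 2 counts in a library.

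Among other genes of microglia and macrophages, 24 of the 30 listed were matched to an identifier, and 9 passed the filter. Of these 9, 1 was higher in OPCs and 0 in OLs, where 9.01% and 2.82% of all tested features were, so the count is near the background, with a median log2 fold change of -0.62 over the 9, against 0.06 over all tested features. The called gene was *hexb*, a lysosomal hexosaminidase subunit made by many cell types, with 372 ± 118 normalized counts in OPCs against 94.5 ± 18.4 in OLs (SD, 5 libraries each; log2 fold change 1.98, adjusted p = 0.000229, edgeR). The lipoprotein gene *apoeb*, which glia of several kinds express, had 3698 ± 1884 normalized counts in OPCs and 9254 ± 4848 in OLs (adjusted p = 0.0515, edgeR). It passed the threshold in 7 of 20 alternatives, among them edgeR without the filter (adjusted p = 0.0201), edgeR without OPC2 (0.0152) and DESeq2 (0.00672). The phagocytic receptor gene *mertka* had 244 ± 203 normalized counts in OPCs and 194 ± 44.9 in OLs. Of the matched genes, 4 averaged 100 normalized counts or more, namely *hexb*, *apoeb*, *mertka* and *cd74a*, the last through OPC3 and OL2. At the low end, 5 of the 24 had at most 3 counts in every library, among them *p2ry12*, the purinergic receptor that marks resting microglia, with 1 count in OL2 and 0 elsewhere, and *tyrobp*, an immune signalling adaptor, with 0 counts in all 10. The gene *irf8*, a transcription factor that microglia need in zebrafish and which was singled out with its values known, had 16.5 ± 12.9 normalized counts in OPCs and 55.4 ± 26.6 in OLs (log2 fold change -1.75, adjusted p = 0.188, edgeR).

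Of the pan-leukocyte genes, 26 of 30 were matched and 6 were tested, with 1 higher in OPCs, where 9.01% of all tested features were, and a median log2 fold change of 0.57 over the 6. The called gene was *itgb2*, which encodes the beta chain of the leukocyte integrins. It had 218.2, 121.0, 144.0, 89.9 and 186.0 normalized counts in OPC1 to OPC5 and at most 1 count in each OL library. With the OL libraries set to 3 counts, its level in OPCs was at least 54.9-fold higher (adjusted p = 2.96e-06, edgeR). The populations did not overlap, as for 12.6% of tested features, and *itgb2* did not follow the 6 genes: it was highest in OPC1, where their sum was lowest. The oxidase subunit gene *cyba* had 85.4 ± 37.1 normalized counts in OPCs and 39.4 ± 7.09 in OLs (adjusted p = 0.108, edgeR). It passed the threshold in 3 of 20 alternatives: edgeR with library size alone (adjusted p = 0.0302), edgeR without OPC5 (0.00943) and limma voom (0.0178). The actin regulator gene *arpc1b* had 38.1 ± 30.7 in OPCs and 37.5 ± 11.3 in OLs.

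**Figure D3:**
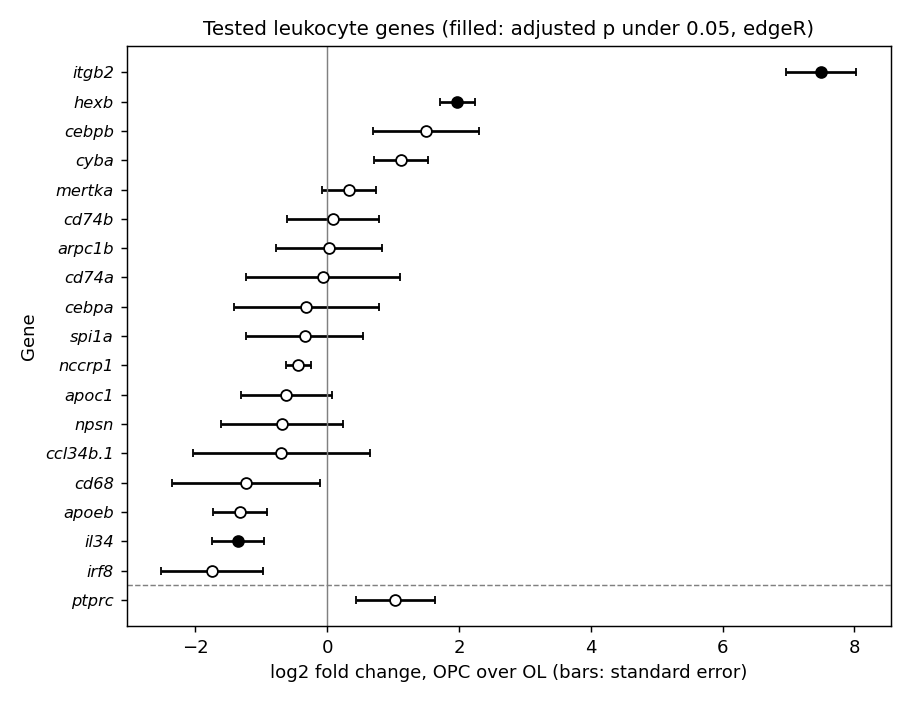
Log2 fold change of OPCs over OLs (horizontal axis) with its standard error (bars) for *ptprc*, below the dashed line, and the 18 tested genes of the macrophage, pan-leukocyte, ligand and neutrophil lists, from edgeR's quasi-likelihood test. Filled points passed an adjusted p of 0.05: *itgb2* and *hexb* were higher in OPCs and *il34* was higher in OLs.

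Within each population, 1 library was the highest for more macrophage genes than any other library. Counting list genes with more than 3 counts in some library of the population and a mean under 200 normalized counts, OPC3 was the highest OPC library for 9 of 14 macrophage genes (64.3%) and for 10 of 19 pan-leukocyte genes (52.6%), against 15.6% of all features counted in the same way. OL2 was the highest OL library for 10 of 17 macrophage genes (58.8%) and 6 of 14 pan-leukocyte genes (42.9%), against 19.8% of all features. Both held together for 7 of 13 macrophage genes and 4 of 12 pan-leukocyte genes, and for 2.94% of 9363 features. These libraries and genes were singled out after their values were seen, so the shares are a description without a test.

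The clearest of these genes, named after their values were seen, was *cd74a*, the invariant chain of class II antigen presentation. It had 433.1 normalized counts in OPC3 and 387.7 in OL2, while the other libraries had between 1.0 and 84.1. The chemokine gene *ccl34b.1*, known from zebrafish microglia, had 82.1 in OPC3 and 93.9 in OL2 and at most 23.5 elsewhere. The complement gene *c1qb* had 10.1 in OPC3, 10.2 in OL2 and 4.5 in OL3, with 0 in the other 7. The Fc receptor adaptor gene *fcer1gl* had 33.8 and 26.5 in OPC3 and OL2 and at most 10.6 elsewhere. Some other genes of the macrophage list, also picked with their values known, peaked in other libraries. The gene *cd68* had 347.5 in OL3, against 11.3 in OPC3 and 6.8 in OL2. The gene *irf8* was highest in OPC4, with 35.1, and in OL4, with 89.9. OPC3 and OL2 are also the libraries in which *mpeg1.1* had more than 1 count, 4 and 18. The other members did not all share this pattern. By the same counting rule, OPC3 was the highest OPC library for 1 of 4 members, and OL2 the highest OL library for 3 of 5. The genes *spi1b* and *csf1ra* had 0 counts in OL2, *coro1a* had 0 in OPC3, and *ptprc* was highest in OPC4 and OL3 after scaling.

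**Figure D4:**
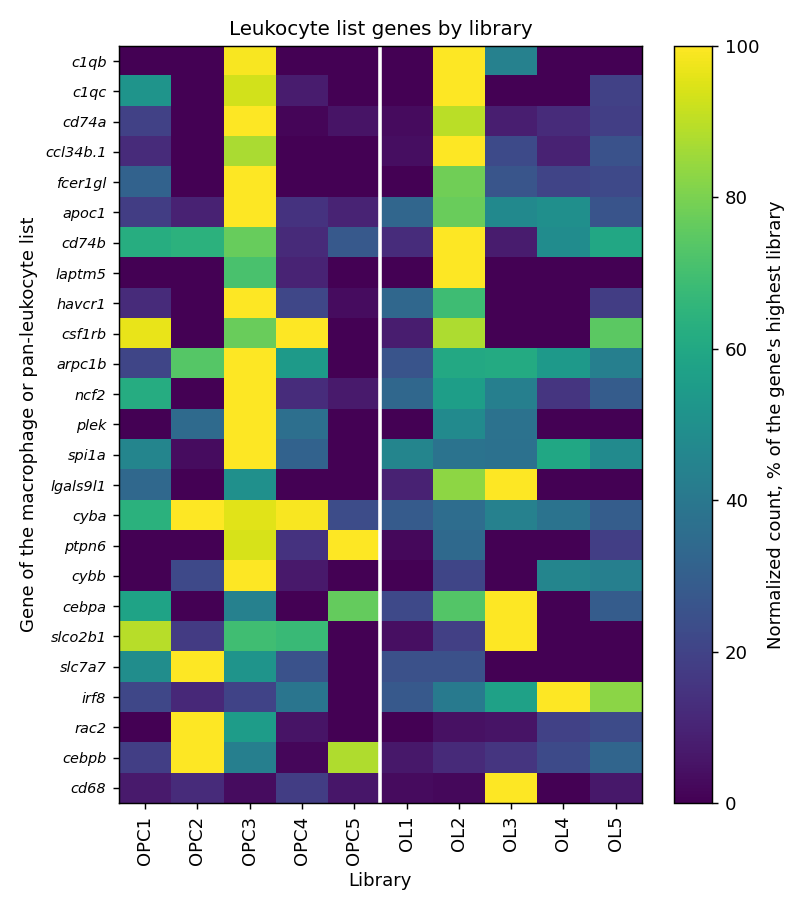
Normalized count of 25 genes of the macrophage and pan-leukocyte lists (rows) in the 10 libraries (columns), each row as a percentage of that gene's highest library, ordered by the mean over OPC3 and OL2. The rows are genes with more than 3 counts in both populations and means under 200; *c1qb*, *cd74a* and *ccl34b.1* are brightest in OPC3 and OL2, while *irf8* and *cd68* are not.

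With OPC3 and OL2 left out together, a choice made after seeing the data, *ptprc* had a log2 fold change of 1.1 (adjusted p = 0.469, edgeR), and 0 members were called. In a fit without the filter, *mpeg1.1* then had a log2 fold change of 1.60 in place of -1.44, with adjusted p of 0.509 and 0.603 (edgeR). The value of 1.60 rests on 1 count, in OPC5, the only *mpeg1.1* count left, so it does not measure a change of direction. The 2 leukocyte genes *hexb* and *itgb2* were called in every alternative fit that tested them. The call of *il34* was lost without these 2 libraries (adjusted p = 0.0831, edgeR), though not when the filter was also dropped (adjusted p = 0.0342, edgeR).

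All matched genes of lymphocytes except *il7r* were at or below the level per kilobase of *ptprc*, and genes of other blood cells ranged more widely. Of 18 matched lymphocyte genes, 0 passed the filter, and 1 was called in edgeR's fit without it, where 9.23% of all features were. Of the 18, 9 had at most 3 counts in every library. The most abundant of them were *il7r*, an interleukin receptor, with 54.2 and 29.6 normalized counts in OPC5 and OPC4 and at most 2.1 elsewhere, and the transcription factor gene *runx3*, with 0 to 20.2. From the neutrophil and mast cell list, 9 genes were matched, 2 were tested and 0 called. The tested genes were *nccrp1*, with 745 ± 190 normalized counts in OPCs and 1008 ± 154 in OLs, and the neutrophil protein gene *npsn*, with 22.6 ± 17.6 and 36.5 ± 32.5 (edgeR, adjusted p = 0.181 and 0.727). The level of *nccrp1* is not read here as a sign of neutrophils or mast cells. Lysozyme, the granule enzyme gene *lyz*, had 0 counts in all 10 libraries, and like *p2ry12*, *tyrobp* and *hbaa1* it was picked with its values known. Of 12 matched erythrocyte and thrombocyte genes, 2 were tested and 1 was higher in OPCs, where 9.01% of all tested features were. This was *tal1*, a transcription factor also used in spinal neurons. It had 103 ± 93.0 normalized counts in OPCs against at most 1 count in an OL library (adjusted p = 7.68e-05, edgeR). The carbonic anhydrase gene *cahz* had 16450 ± 7987 and 24857 ± 7536, and the platelet glycoprotein gene *gp1bb* had 3.85 ± 3.52 and 4.85 ± 2.37. The globin gene *hbaa1* had at most 21 counts in a library, and the level of *cahz* is not read here as a sign of erythrocytes.

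All 12 matched endothelial genes were at or below the level per kilobase of *ptprc*. Of these, 6 had at most 3 counts in every library. Only 1 of the 12, *kdr*, passed the filter and was tested, and it was not called. The receptor gene *kdr* had 10.7 ± 10.1 normalized counts in OPCs and 13.0 ± 19.5 in OLs (adjusted p = 0.936, edgeR), and *plvapa*, a protein of vessel pores, had 16.4 in OPC4 and at most 2.1 elsewhere. Of 8 matched mural and meningeal genes, 2 were tested and 1, *dcn*, encoding the matrix proteoglycan decorin, was higher in OPCs, with 862 ± 846 normalized counts against 4.62 ± 5.68 in OLs (adjusted p = 8.64e-05, edgeR). Smooth muscle actin, *acta2*, had 542 ± 148 and 571 ± 151, and the channel subunit gene *abcc9* had 24.3 in OPC5 and at most 2.3 elsewhere. Of 9 matched neuronal genes 6 were tested, and 3 were higher in OPCs: *gad2*, a GABA-synthesizing enzyme, with 135 ± 82.2 against 1.5 ± 3.36, the glycolytic enzyme gene *eno2* with 87.2 ± 68.8 against 2.29 ± 2.05, and the synaptic vesicle gene *sv2a* with 75.9 ± 43.0 against 4.71 ± 4.86 (adjusted p = 0.000985, 0.00105 and 0.00725, edgeR). The RNA-binding protein genes *elavl3* and *elavl4* had 4938 ± 1079 and 1462 ± 166 in OPCs, and 5631 ± 944 and 1643 ± 238 in OLs. All 5 matched genes of radial glia and astroglia were tested, and 2 were higher in OPCs, namely *atp1b4* with 793 ± 584 against 16.3 ± 9.90 and the Notch target *her4.1* with 205 ± 160 against at most 1 count in an OL library (adjusted p = 9.04e-05 and 4.53e-05, edgeR), while *ndrg3a* and *s100b* were not called. The gene *s100b* was close to the threshold (log2 fold change 1.17, adjusted p = 0.0727, edgeR) and passed it in 8 of 20 alternatives, the replicate block among them. Of all tested features, 9.01% were called higher in OPCs and 2.82% higher in OLs. Beside this, the calls higher in OPCs were 1 of 2 tested mural and meningeal genes, 3 of 6 neuronal genes and 2 of 5 genes of radial glia and astroglia. These lists are small and no set test was made. The part of the RNA of these cell types in the values of the 6 leukocyte genes was not tested.

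By the library-to-library pattern, the only member that could be followed was *ptprc*. Over 9036 features with a symbol and an average of 50 normalized counts or more, the deviations from the population mean were compared with those of *ptprc* over the 10 libraries. The most alike were WDR91, camk2d2, MRPL2, NAA30, pcsk1nl, MCM2, NOMO2 and RANBP3, spelled as in the gene table, with Pearson's r from 0.94 to 0.91. These r values are across libraries that share their sorting line, they were picked as the highest of 9036, and with a pseudocount of 10 in place of 1 only 3 of the 8 stayed among the first 8. No gene of the leukocyte lists was among them, but most genes of these lists averaged under 50 normalized counts and were not compared. Of the 8, camk2d2 and MCM2 were far higher in OPCs (log2 fold change 8.25 and 8.91, edgeR). Their OL values were near 0, so their r says little about OL libraries.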

How the data were processed

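Polyadenylated RNA of FACsorted cells was amplified as full-length cDNA by the authors, sequenced as single-end reads, mapped to GRCz10 with GSNAP and counted per gene of Ensembl version 81 with featureCounts 1.5.2, after bcl2fastq 2.17.1.14 (versions from the submitters' processing notes). The authors deposited raw counts for 31388 features. The settings for strand and for reads mapping to several genes are not given in the sources used here. Gene names came from a table that named 25925 identifiers. The gene table spells 4 of the 6 members as MPEG1, SPI1, LCP1 and CORO1A, and 141 of 192 entries of 11 marker lists were matched by symbol, ignoring case. No sequence was used here.

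From the deposited counts, features were kept by filterByExpr (12292), scaled by DESeq2 1.42.0 size factors, and tested with edgeR 4.0.16 (quasi-likelihood, R 4.3.3), with Benjamini-Hochberg adjustment over all tested features. Standard errors were derived from the F statistic. Members that the filter removed were tested by an exact permutation of libraries in Python 3.11.15. Alternatives were TMM, library size, other filters, DESeq2, limma 3.58.1 voom, a replicate block and leaving out each library. Leaving out OPC3 and OL2 and thinning were added after seeing the data. The test was tried on simulated data. Replicates differed by far more than counting noise (chi-square per degree of freedom at least 27.8), and p-values measure the spread between these samples. The members and lists were chosen with earlier results of these data known. Genes of a list were named if called (up to 4 by mean), with up to 2 not called, besides 5 lineage genes and the 8 features most like the members. Genes outside this rule are marked as picked with values known.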

Additional observations from a re-analysis of the deposited data

Results flagged for a closer look

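In 71 groups of 5 libraries, the gap between the highest or lowest library and its nearest neighbour was set against the range of the group. In 12 groups the gap was above 0.71 of the range. For normally distributed values, about 1 in 20 groups would pass, or 3.55. Counts near 0 are skewed and some groups share genes, so 12 against 3.55 does not measure an excess. Another 13 groups with at most 3 counts in every library were not examined. OL2 stood apart for *mpeg1.1* (15.4 normalized counts, the others at 0), for the sum of the 6 members (61.5, the next 26.8) and for *cahz* (37948, the next 23565). OPC3 stood apart for *mpeg1.1* (4.5, the next 0.934).

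OPC5 stood apart for *mertka* (606, the next 183), *abcc9* (24.3, the next 2.25), *olig2* (24346, the next 16225) and *sox10* (4623, the next 2854). OPC2 stood apart for *apoeb* (6935, the next 3381) and *dcn* (2332, the next 754), OPC4 for *plvapa* (16.4, the next 2.13) and OL5 for *gad2* (7.51, the others at 0). What sets these libraries apart was not tested.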

How the results depend on the processing

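No member was called in any alternative that tested one, and none of the 6 could be tested when every library had to reach 10 counts. In all, 1455 features differed, against 2336 without a filter and 449 under that stricter filter, and 1282 to 1796 with each library left out. With the replicate block, 1407 features differed and *ptprc* had a log2 fold change of 0.78 (adjusted p = 0.562, edgeR). Libraries with the same number are from separate lines, and the labels do not say whether they share a batch. Their deviations correlated at 0.0240 to 0.105, against -0.102 to 0.0730 for other pairs. By this measure, 8 of 10 libraries correlated best with their own number. The main fit assumed no pairing, and whether a batch is shared by number was not tested. The log2 fold change of *ptprc* ranged from 0.75 to 1.34 over all alternatives (adjusted p 0.121 to 0.562 with edgeR, DESeq2 or limma).

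On log2(normalized count + 1), the difference of *mpeg1.1* (OPC minus OL), -0.12, was 0.24 without OPC3 and OL2 together and -0.57 to 0.68 with each library left out. Its log2 fold change in edgeR's fit without a filter, -1.44, was 1.60 without those 2 libraries. Both values of *mpeg1.1* without OPC3 and OL2 rest on 1 count, in OPC5. The difference of *spi1b*, 0.27, was -0.19 without both and -0.10 to 0.62 with each library left out, and its unfiltered edgeR log2 fold change, 0.32, was -0.26 without both. The difference of *lcp1*, -1.09, was -1.49 to -0.65 with each library left out (p 0.0952 to 0.389, exact). That of *csf1ra*, 0.85, was 0.96 with library size alone and 1.03 after thinning (exact permutation p = 0.0476 in both), and 0.69 to 1.12 with each library left out (p 0.0317 to 0.167, exact). That of *coro1a*, -1.62, was -2.02 to -1.18 with each library left out (p 0.0476 to 0.167, exact), the lower end without OL1 or OL5. As only OL libraries held *coro1a* reads, each p was set by the numbers of libraries with and without reads. The size of the counts played no part, so the range of p does not measure a change in evidence. The ratio of summed members was 1.05 to 1.58 with each library left out. Library size alone moved the median log2 fold change of all features from 0.06 to 0.36. DESeq2 and limma were run on the filtered features, so they gave no value for the 5 members the filter removed, whose low counts set the limit of these comparisons. The cause of the changes was not tested.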
